A study of Mus musculus with 6 samples.

Results

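The 44 genes described here encode the machinery that prepares origins of DNA replication and copies the DNA at the fork. They were taken by name, and all 44 had a gene row among the 22095 gene rows of the table. They fall into 4 groups by role: 6 genes of origin licensing, 14 of the replicative helicase and its firing factors, 19 of the polymerases and their fork partners, and 5 of chromatin assembly and maintenance behind the fork.

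RNA had been sequenced from wild type CD8+ T cells of C57BL/6 mice, an inbred laboratory strain. Ponatinib, a multikinase drug developed against BCR-ABL, was added at 10 nM in 3 libraries, and its solvent DMSO was added in the other 3. All 6 came from naive cells purified from spleen and cultured for 48 h with stimulating CD3 and CD28 antibodies and recombinant IL-2. The labels give neither the age nor the sex of the mice. Nor do they say whether each replicate was its own mouse or culture, and the p-values therefore reflect library-to-library spread alone, which may be technical.

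A resting T cell holds little of this machinery. When a T cell is activated and enters the cell cycle, E2F transcription factors switch on the licensing and fork genes, the origin recognition complex with CDC6 and CDT1 loads the MCM2-7 helicase ring onto origins, and the kinase CDC7 with DBF4 then fires it. In CD8 T cells this precedes the rapid divisions that build a clone of effector cells.

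Levels are in TPM (transcript abundance scaled to a fixed library total), which relate each gene's reads to its length and to the library's total, so that genes can be compared with each other within a library. TPM keep no read number, so the depth is unknown and counting error cannot be given. Fold changes are differences of log2(TPM + 1), ponatinib minus DMSO, from a limma fit of all 10039 gene rows that averaged 1 TPM or more. Calls were made at an adjusted p under 0.05, by the Benjamini-Hochberg method over every gene in that fit. All 44 replication genes passed the minimum, and 42 averaged 10 TPM or more. In bulk RNA, fewer cells expressing a gene and less of its RNA per cell cannot be told apart.

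The libraries held other signals, some of which varied within DMSO and some of which moved with treatment, and their part in the results was not tested. DMSO replicate 3 stood apart on the second principal component, which held 17.3% of the variance, and mitochondrially encoded genes made up 7.16% to 8.19% of TPM with ponatinib against 9.76%, 10.7% and 4.78% in DMSO replicates 1, 2 and 3. Defining T cell transcripts were high in all libraries, with the 7 markers summing to 2080 to 2330 TPM with ponatinib and 1850 to 1860 TPM with DMSO. Among markers of other cells, 7 B cell genes apart from Ighm summed to 17.0 to 19.2 TPM with ponatinib and 7.24 to 13.5 TPM with DMSO. With Ighm included, the sums were 153 to 174 TPM with ponatinib and 138 to 166 TPM with DMSO, and the groups overlapped. The 4 CD4 T cell genes summed to 16.4 to 19.7 TPM with ponatinib and 5.21 to 9.53 TPM with DMSO, and 8 myeloid genes to 5.18 to 7.64 TPM with ponatinib and 0.965 to 1.14 TPM with DMSO. The 4 NK cell genes summed to 0.476 to 2.3 TPM with ponatinib and 0.0191 to 0.327 TPM with DMSO. The 6 erythroid and platelet genes summed to 2.26 to 4.87 TPM with ponatinib and 0.454 to 1.2 TPM with DMSO. All ponatinib libraries were above all DMSO libraries for 3 of 8 B cell genes with Ighm and 3 of 4 CD4 T cell genes. The same held for 4 of 8 myeloid, 2 of 4 NK cell and 3 of 6 erythroid and platelet genes. It held for 34.5% of all tested genes, which averaged 1 TPM or more. Most of the B cell, myeloid, NK cell, erythroid and platelet genes averaged less and were not tested, so these shares are of unlike sets. The remaining CD4 T cell gene, Zbtb7b, went the other way and was called lower (log2 fold change -0.84, adjusted p = 0.0442). S100a8, S100a9 and Ncr1 were listed at 0 in all 3 DMSO libraries, and S100a9 also in ponatinib replicate 2. With ponatinib S100a8 had only 0.19 to 0.59 TPM and Ncr1 0.10 to 0.23 TPM.

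With ponatinib the replication genes stayed close to their DMSO levels. Of the 44, 12 were higher, 27.3%, where 23.9% of all tested genes were called higher. Pold1 alone, 1 gene, was lower, which is 2.27% of the list, where 9.54% of all tested genes were called lower. The share of higher members lies near that of all genes and is no result about replication genes. The ratio of mean TPM, ponatinib over DMSO, ran from 0.828 for Pold1 to 1.28 for Gins3. The median log2 fold change of the 44 was 0.092, beside 0.091 for all tested genes, and 22 members lay above and 22 below that median of all genes.

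The members varied little among themselves. Their log2 fold changes lay between -0.27 and 0.32, and 28.2% of all tested genes lay outside this range. Of the 6466 tested genes that averaged 10 TPM or more, 24.3% lay outside it. The 95% interval of the log2 fold change lay within 0.5 in size for 43 of 44 members. Gins3 was the exception, with an interval of 0.12 to 0.53. In 18 members, 40.9%, all ponatinib libraries were above all DMSO libraries, where the same held for 34.5% of all tested genes. Pold1 was the only member, 2.27% of the list, with all ponatinib libraries below all DMSO libraries, where that held for 14.9% of all tested genes.

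**Figure D1:**
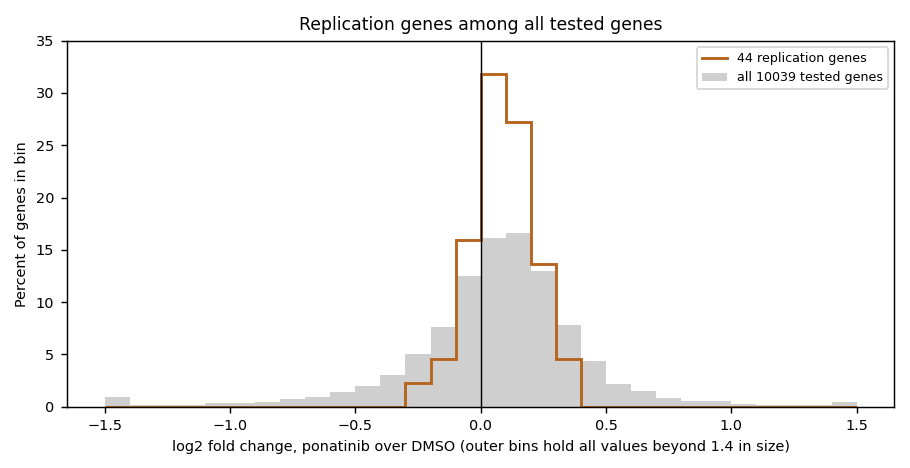
Percent of genes (vertical axis) in bins of log2 fold change, ponatinib over DMSO (horizontal axis), for the 44 replication genes (outline) and all 10039 tested genes (grey). The outline fills bins from -0.3 to 0.4, holding member values of -0.27 to 0.32, while the grey bars spread wider. The outer bins hold all values beyond their inner edge.

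The scaling of libraries set the direction of 12 members, none of them called, which were above 0 with TPM and below 0 with medians of ratios. With medians of ratios in place of TPM as deposited, the median of all tested genes moved from 0.091 to 0.0015 and the median of the 44 members from 0.092 to -0.0032. With that scaling 3 members were higher, where 14.7% of all genes were, and 2 were lower, where 15.7% of all genes were. Of all calls over the tested genes, 71.5% were higher with TPM and 48.3% with medians of ratios. Mcm4, Rpa2 and Slbp were called higher and Pold1 was called lower under all 15 alternative settings tried, and no member was called in opposite directions under any of them.

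**Figure D2:**
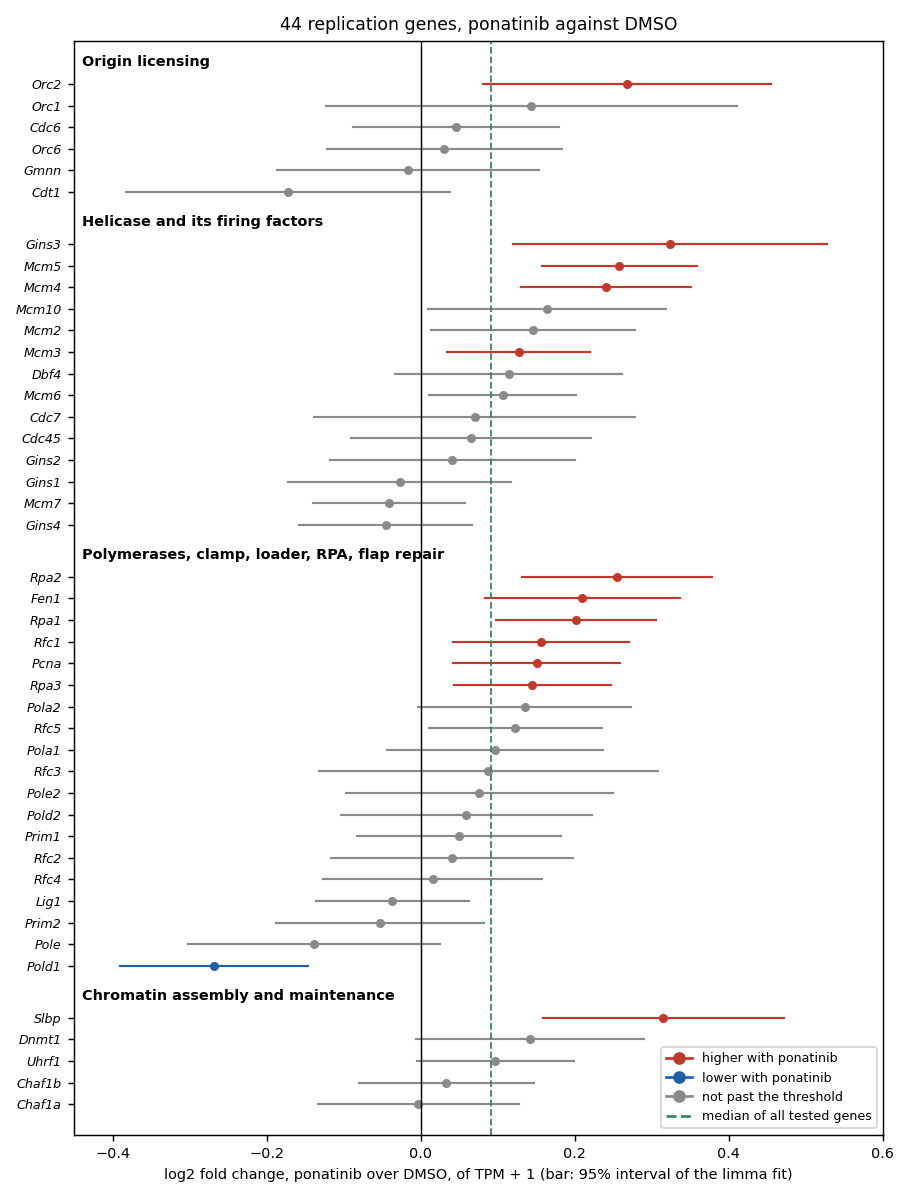
Log2 fold change, ponatinib over DMSO (horizontal axis), of each of the 44 genes by role group, with the 95% interval of the limma fit (bars) and the median of all tested genes, 0.091 (dashed line). The 12 genes called higher are red, Pold1 is blue, and most intervals include the dashed line.

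The promoters were searched for a motif without use of the measured values. E2F sites are the textbook regulatory element of this pathway. The octamers TTTGGCGC, TTTGCCGC, TTTCGCGC and TTTCCCGC, the forms that an E2F consensus allows, were searched on both strands in RefSeq windows running from 250 bases before to 50 after a gene's start, on GRCm38.p6. The octamers can overlap one another and a gene can have more than 1 window. Genes with a match in any of their windows were therefore counted, and not matches or windows. Of the 44 members 36 had a window, and 15 of these, 41.7%, held at least 1 octamer, where 2.6% of 27025 genes with a window did. A match is a description of the letters and does not show binding.

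Octamers were found among members of every call. They were found in 3 of 11 members called higher that had a window (Mcm3, Mcm5 and Gins3), in the 1 called lower, Pold1, and in 11 of 24 not called. By role they were found in 3 of 5 origin genes, 5 of 10 helicase genes, 5 of 16 polymerase and fork genes and 2 of 5 chromatin genes. Pcna, Fen1, Rfc1, Orc2, Slbp and all 3 RPA genes, which were higher with ponatinib, held none in these windows. The 4 windows shown here are those of a helicase gene called higher, a helicase gene not called, the gene called lower and a gene called higher without an octamer. Each is written 5′ to 3′ on the gene's strand, with the octamers in capitals.
Mcm5: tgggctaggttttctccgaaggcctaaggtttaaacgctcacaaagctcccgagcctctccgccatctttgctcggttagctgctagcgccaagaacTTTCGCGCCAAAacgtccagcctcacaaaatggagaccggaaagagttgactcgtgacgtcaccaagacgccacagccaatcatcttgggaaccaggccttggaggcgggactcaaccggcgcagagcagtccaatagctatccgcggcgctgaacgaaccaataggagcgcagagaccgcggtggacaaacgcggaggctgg
Mcm7: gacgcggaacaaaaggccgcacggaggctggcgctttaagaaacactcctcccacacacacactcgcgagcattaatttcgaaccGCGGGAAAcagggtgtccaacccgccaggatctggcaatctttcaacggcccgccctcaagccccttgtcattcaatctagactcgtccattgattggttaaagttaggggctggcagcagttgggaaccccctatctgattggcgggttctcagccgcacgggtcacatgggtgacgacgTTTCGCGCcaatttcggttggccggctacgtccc
Pold1: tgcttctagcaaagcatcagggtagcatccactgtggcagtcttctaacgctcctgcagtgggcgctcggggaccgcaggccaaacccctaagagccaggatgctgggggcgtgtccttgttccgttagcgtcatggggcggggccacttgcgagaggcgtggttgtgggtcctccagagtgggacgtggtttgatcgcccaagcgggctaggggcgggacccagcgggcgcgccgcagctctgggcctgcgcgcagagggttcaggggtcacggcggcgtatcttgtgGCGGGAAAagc
Slbp: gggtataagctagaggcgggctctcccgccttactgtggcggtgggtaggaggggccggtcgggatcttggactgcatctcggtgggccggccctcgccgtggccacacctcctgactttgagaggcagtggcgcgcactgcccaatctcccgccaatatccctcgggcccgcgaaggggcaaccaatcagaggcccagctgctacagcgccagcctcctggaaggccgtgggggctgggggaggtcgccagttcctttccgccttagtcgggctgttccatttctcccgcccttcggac
The Mcm5 window is chr8:75109259-75109558, plus strand, and its 2 octamers overlap, the first beginning 153 bases before the start. The Mcm7 window is chr5:138171834-138172133, minus strand, with octamers beginning 165 bases before the start and at base 17 after it. The Pold1 window is chr7:44548766-44549065, minus strand, with its octamer at base 40 after the start. The Slbp window is chr5:33652525-33652824, minus strand. The starts used here are those of RefSeq. In GENCODE, the source of the gene positions in this text, Mcm5 begins at 75109569, after the end of its window. Mcm7 begins at 138172422 on the minus strand, so its whole window lies inside the gene.

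Origin licensing genes showed 1 of 6 members higher, 16.7%, and 0 lower, beside 23.9% and 9.54% of all tested genes. The median log2 fold change was 0.038, below that of all tested genes by 0.052. Orc2 encodes a subunit of the origin recognition complex, which marks origins. It had 54.2, 60.7 and 67.1 TPM in the ponatinib libraries, against 52.3, 48.3 and 49.6 TPM in the DMSO libraries (log2 fold change 0.27 with an SE of 0.081, adjusted p = 0.0373). The lowest ponatinib library stood just above the highest DMSO library, and the ponatinib libraries were the more spread group. Orc2 overlaps exons of Nif3l1 on the opposite strand, which had a mean of 19.6 TPM, and the labels do not say whether counting used strand. A further 20.2% of its summed TPM with ponatinib and 25.3% with DMSO sat in transcript rows outside the gene row, and with these added the Orc2 call was lost.

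The loaders of the helicase did not pass the test. Cdt1, which brings MCM2-7 to origins, had 64.7, 71.1 and 65.7 TPM in the ponatinib libraries, against 71.2, 69.8 and 87.5 TPM in the DMSO libraries (log2 fold change -0.17 with an SE of 0.091, adjusted p = 0.179). DMSO replicate 3 stood well above the other 5 libraries, which overlapped. Cdt1 was called lower with medians of ratios (log2 fold change -0.27, adjusted p = 0.0229) and with quantile normalization (-0.24, adjusted p = 0.0408), and under the 13 other alternatives it was not called. Gmnn encodes geminin, the inhibitor of CDT1, and was the most abundant of the origin genes. It had 94.7, 104 and 106 TPM in the ponatinib libraries, against 98.2, 97.5 and 113 TPM in the DMSO libraries (log2 fold change -0.017 with an SE of 0.074, adjusted p = 0.882), so its groups overlapped.

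Cdc6, the ATPase that loads MCM rings together with the origin recognition complex, had 43.3, 41.6 and 45.2 TPM in the ponatinib libraries, against 41.7, 40.7 and 43.5 TPM in the DMSO libraries (log2 fold change 0.046 with an SE of 0.058, adjusted p = 0.577). Its groups overlapped, and the 95% interval of its log2 fold change was -0.088 to 0.18. Orc1, the ATPase subunit of the recognition complex, had 19.2, 21.2 and 21.4 TPM in the ponatinib libraries, against 17.4, 16.3 and 22.3 TPM in the DMSO libraries (log2 fold change 0.14 with an SE of 0.12, adjusted p = 0.369). Here DMSO replicate 3 was the highest of all 6 libraries, and without it Orc1 was called higher (log2 fold change 0.27, adjusted p = 0.0175). Without that library 35.3% of all tested genes were called higher. Orc6, another subunit of the recognition complex, averaged 79.5 ± 2.71 TPM with ponatinib and 78.0 ± 6.07 TPM with DMSO (SD, n = 3 each) and did not pass the test.

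**Figure D3:**
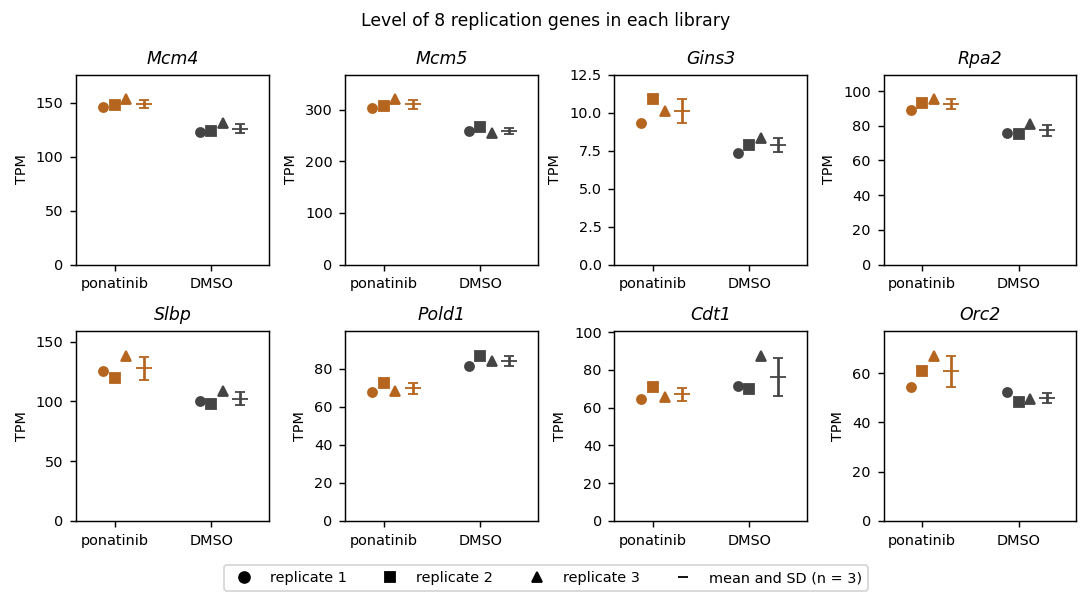
TPM (vertical axis, from 0) of 8 named genes in each library, with ponatinib left of DMSO, replicates by symbol and the mean with its SD beside them. Ponatinib and DMSO libraries do not overlap for Mcm4, Mcm5, Gins3, Rpa2, Slbp, Orc2 and Pold1, and Pold1 alone of these is lower with ponatinib; the Cdt1 groups overlap.

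Helicase genes showed 4 of 14 members higher, 28.6%, and 0 lower, beside 23.9% and 9.54% of all tested genes. Their median log2 fold change was 0.11, beside 0.091 for all tested genes. Mcm5, a subunit of the MCM2-7 ring that unwinds DNA ahead of the fork, had 304, 308 and 320.5 TPM in the ponatinib libraries, against 258, 266 and 255 TPM in the DMSO libraries (log2 fold change 0.26 with an SE of 0.044, adjusted p = 0.00424). Every ponatinib library was above every DMSO library by more than the spread within either group. Its call was lost with medians of ratios (log2 fold change 0.16, adjusted p = 0.0692) and was kept under the 14 other alternatives, with adjusted p of 0.00322 to 0.0238. Mcm4, another ring subunit, had 146, 148 and 153 TPM in the ponatinib libraries, against 123, 124 and 131 TPM in the DMSO libraries (log2 fold change 0.24 with an SE of 0.048, adjusted p = 0.00784). Its groups did not overlap either. Mcm5 lies on chromosome 8 at 75109569 to 75128439 of GRCm38 and Mcm4 on chromosome 16 at 15623897 to 15637400.

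The other ring subunits differed less. Mcm3 had 274, 280.3 and 281 TPM in the ponatinib libraries, against 258, 252 and 254 TPM in the DMSO libraries (log2 fold change 0.13 with an SE of 0.04, adjusted p = 0.0427), a difference of 9.25%, and the groups did not overlap. Mcm6, the most abundant helicase gene, had 309, 307 and 322 TPM in the ponatinib libraries, against 292, 289 and 290.4 TPM in the DMSO libraries (log2 fold change 0.11 with an SE of 0.041, adjusted p = 0.0842). Its groups did not overlap, but it did not pass the test. Mcm2 averaged 149.7 ± 4.76 TPM with ponatinib and 135 ± 8.30 TPM with DMSO and Mcm7 averaged 209 ± 2.16 TPM with ponatinib and 215 ± 5.68 TPM with DMSO (SD, n = 3 each), neither past the threshold. Without DMSO replicate 3, the highest of the DMSO libraries for Mcm2, that gene was called higher (log2 fold change 0.20, adjusted p = 0.0107).

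The ring holds 1 copy of each of its 6 subunits, but the levels of their transcripts were unequal in both groups. Mcm3, Mcm5 and Mcm6 had gene-row levels above 250 TPM in every library, Mcm7 had 208 to 221 TPM, and Mcm2 and Mcm4 had 123 to 155 TPM. A share of the 6 genes' summed TPM within a library does not depend on the scaling of libraries. The share of Mcm5 was 22.0, 22.0 and 22.2% with ponatinib, against 20.3, 20.8 and 19.8% with DMSO, and that of Mcm4 was 10.5, 10.6 and 10.6% with ponatinib, against 9.67, 9.65 and 10.1% with DMSO. Both shares were higher in every ponatinib library. The share of Mcm7 was 15.0, 14.8 and 14.7% with ponatinib, against 16.5, 17.2 and 16.7% with DMSO, lower in every ponatinib library. No test of these shares was run.

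Much of the Mcm7 signal sat outside its gene row. The row Mcm7-209, listed apart from the gene row, had 99.0, 99.3 and 76.8 TPM in the ponatinib libraries, against 93.4, 83.0 and 82.2 TPM in the DMSO libraries, and the transcript rows together held 30.7% of its summed TPM with ponatinib and 28.9% with DMSO. With transcript rows added, a choice made after the data were seen, Mcm7 averaged 302 TPM over the 6 libraries and its share was 20.7, 20.5 and 18.9% with ponatinib, against 22.2, 22.2 and 21.7% with DMSO. The shares of Mcm4 and Mcm5 stayed above, and that of Mcm7 below, in every ponatinib library. The share of Mcm6 was below in every ponatinib library from gene rows alone, and its groups overlapped with transcript rows added.

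**Figure D4:**
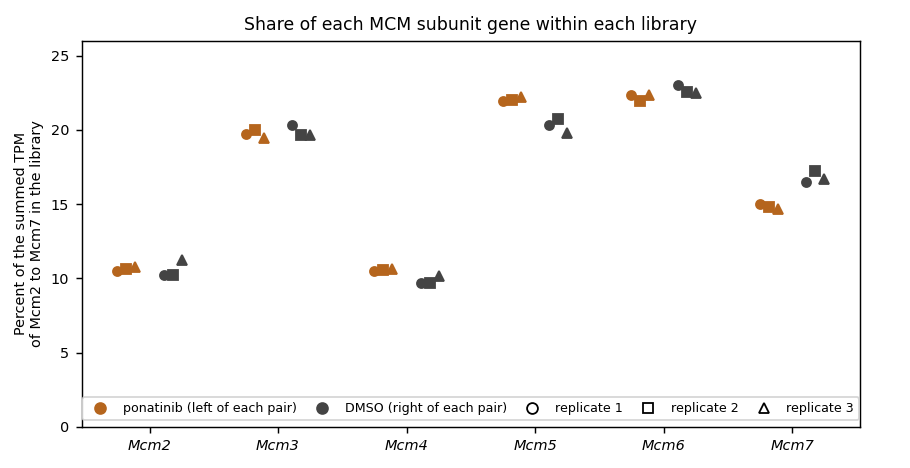
Percent of the summed gene-row TPM of Mcm2 to Mcm7 (vertical axis, from 0) held by each gene in each library, ponatinib left of DMSO in each pair. Mcm4 and Mcm5 hold a larger share in every ponatinib library and Mcm7 and Mcm6 a smaller one; Mcm2 and Mcm3 overlap.

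Among the activators of the helicase, 1 gene passed the test. GINS, a complex of 4 subunits, joins CDC45 and the MCM ring in the active helicase. Gins3 had 9.32, 10.9 and 10.1 TPM in the ponatinib libraries, against 7.36, 7.90 and 8.32 TPM in the DMSO libraries (log2 fold change 0.32 with an SE of 0.088, adjusted p = 0.0258), and its groups did not overlap. It was 1 of the 2 members with a mean under 10 TPM, so that a minimum of 10 TPM leaves it out. The other 3 GINS genes did not pass the test, with log2 fold changes of -0.028 for Gins1, 0.041 for Gins2 and -0.046 for Gins4. GINS transcript levels differed more than those of the ring, as Gins4 averaged 65.7 TPM and Gins3 10.1 TPM with ponatinib.

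Cdc45 averaged 55.1 ± 2.45 TPM with ponatinib and 52.7 ± 3.82 TPM with DMSO, and Mcm10, which acts when the helicase is activated, averaged 49.6 ± 2.73 TPM with ponatinib and 44.1 ± 2.56 TPM with DMSO (SD, n = 3 each). Neither passed the test; without DMSO replicate 3 Mcm10 was called higher (log2 fold change 0.21, adjusted p = 0.024). Cdc7, the catalytic subunit of the kinase that fires origins, was the other member that averaged under 10 TPM, with 9.13, 9.42 and 10.4 TPM in the ponatinib libraries, against 8.81, 8.58 and 10.0 TPM in the DMSO libraries (log2 fold change 0.07 with an SE of 0.09, adjusted p = 0.582). Dbf4, its activating subunit, had 52.7, 55.8 and 60.7 TPM in the ponatinib libraries, against 50.9, 51.6 and 53.4 TPM in the DMSO libraries and did not pass the test either. The levels of Dbf4 were several times those of Cdc7 in every library.

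Polymerase and fork genes showed 6 of 19 members higher, 31.6%, and 1 lower, 5.26%, where 23.9% and 9.54% of all tested genes were. Their median was 0.088, against 0.091 for all tested genes. Pold1, the catalytic subunit of DNA polymerase delta, had 67.8, 72.7 and 68.4 TPM in the ponatinib libraries, against 81.6, 86.9 and 83.9 TPM in the DMSO libraries (log2 fold change -0.27 with an SE of 0.053, adjusted p = 0.00749). It was lower in every ponatinib library, and the 95% interval of its log2 fold change was -0.39 to -0.15. Over the 15 alternatives its log2 fold change stayed below 0 and its adjusted p ran from 0.00459 to 0.0361. Pold1 lies on chromosome 7 at 44532746 to 44548849 of GRCm38.

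Pold2, the accessory subunit of the same polymerase, did not pass the test. It had 108, 118 and 120.0 TPM in the ponatinib libraries, against 101, 116 and 115 TPM in the DMSO libraries (log2 fold change 0.059 with an SE of 0.07, adjusted p = 0.549), with overlapping groups. Within each library Pold1 made up 38.5, 38.2 and 36.3% of the summed TPM of these 2 genes with ponatinib, against 44.7, 42.7 and 42.2% with DMSO, a share that does not depend on scaling. Pole, the catalytic subunit of the leading strand polymerase epsilon, averaged 35.8 ± 2.23 TPM with ponatinib and 39.5 ± 2.34 TPM with DMSO (SD, n = 3 each; log2 fold change -0.14, adjusted p = 0.168). Its accessory subunit gene Pole2 had a log2 fold change of 0.076 and did not pass the test.

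The 3 genes of RPA, the complex that coats single-stranded DNA, were all higher. Rpa2 had 89.2, 93.1 and 95.3 TPM in the ponatinib libraries, against 76.0, 75.1 and 81.0 TPM in the DMSO libraries (log2 fold change 0.25 with an SE of 0.053, adjusted p = 0.00955), and every ponatinib library was above every DMSO library. Rpa1, the largest subunit, had 163, 157 and 162 TPM in the ponatinib libraries, against 142, 142 and 135 TPM in the DMSO libraries (log2 fold change 0.20 with an SE of 0.045, adjusted p = 0.0123). Rpa3, the smallest, averaged 102 ± 1.89 TPM with ponatinib and 91.8 ± 0.591 TPM with DMSO (SD, n = 3 each; log2 fold change 0.14, adjusted p = 0.0382). With medians of ratios Rpa2 was still called, at 0.16 (adjusted p = 0.028), while Rpa1 and Rpa3 were not, at 0.11 and 0.050. Rpa2 lies on chromosome 4 at 132768332 to 132778752.

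Pcna encodes the sliding clamp that holds polymerases on DNA and was the most abundant of the 44 genes, with a mean of 549 TPM over the 6 libraries. It had 587, 549.7 and 598 TPM in the ponatinib libraries, against 510.4, 523 and 528 TPM in the DMSO libraries (log2 fold change 0.15 with an SE of 0.047, adjusted p = 0.0408), with no overlap between groups. The annotation holds 2 processed pseudogenes of Pcna, and reads could be split between near-identical copies. Of the 5 genes of RFC, which loads the clamp, Rfc1 was higher (log2 fold change 0.16 with an SE of 0.049, adjusted p = 0.0435) and the other 4 did not pass the test, with log2 fold changes of 0.015 to 0.12. The large subunit Rfc1 averaged 57.8 ± 0.799 TPM with ponatinib and 51.8 ± 1.30 TPM with DMSO (SD, n = 3 each).

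Among enzymes that finish the lagging strand, Fen1, the flap endonuclease, had 121, 129 and 126 TPM in the ponatinib libraries, against 111, 112 and 102 TPM in the DMSO libraries (log2 fold change 0.21 with an SE of 0.055, adjusted p = 0.0216). The groups did not overlap. The longest overlap of a Fen1 exon with one of Tmem258, on the opposite strand with a mean of 150.0 TPM, was 75 bases. With the antisense gene Gm10143, which had no gene row, it was 1909 bases, so the Fen1 level is uncertain without strand. Lig1, the ligase that joins Okazaki fragments, averaged 132 ± 0.518 TPM with ponatinib and 135 ± 2.95 TPM with DMSO (SD, n = 3 each; log2 fold change -0.037) and did not pass the test. The 4 genes of polymerase alpha and primase, which start new strands, did not pass it either, with log2 fold changes of -0.053 for Prim2, 0.049 for Prim1, 0.10 for Pola1 and 0.13 for Pola2. Without DMSO replicate 3, Pola2 was called higher (0.19, adjusted p = 0.0145).

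Chromatin genes showed 1 of 5 members higher, 20.0%, and 0 lower, against 23.9% and 9.54% of all tested genes. The median of the 5 was 0.096, with 0.091 for all tested genes. Slbp encodes the protein that binds the stem-loop of replication-dependent histone messages. It had 125, 119.8 and 138 TPM in the ponatinib libraries, against 101, 98.1 and 108 TPM in the DMSO libraries (log2 fold change 0.32 with an SE of 0.067, adjusted p = 0.0103). Its groups did not overlap, and ponatinib replicate 3 was the highest library. Slbp lies on chromosome 5 at 33634952 to 33652574.

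The genes that copy DNA methylation did not pass the test. Dnmt1, the maintenance methyltransferase, had 123, 121 and 127 TPM in the ponatinib libraries, against 109, 105 and 122 TPM in the DMSO libraries (log2 fold change 0.14 with an SE of 0.064, adjusted p = 0.126). DMSO replicate 3 overlapped with the ponatinib libraries, and without it Dnmt1 was called higher (log2 fold change 0.20, adjusted p = 0.00918). Uhrf1, which recruits DNMT1 to newly copied DNA, was the most abundant of the chromatin genes, with 199, 203 and 208 TPM in the ponatinib libraries, against 185, 192 and 193 TPM in the DMSO libraries (log2 fold change 0.10 with an SE of 0.044, adjusted p = 0.129). Its groups did not overlap.

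Chaf1a and Chaf1b encode the large and middle subunits of CAF-1, which lays histones onto new DNA. Chaf1b had 46.8, 45.9 and 46.9 TPM in the ponatinib libraries, against 45.0, 46.0 and 45.2 TPM in the DMSO libraries (log2 fold change 0.033 with an SE of 0.049, adjusted p = 0.64). Chaf1a averaged 34.3 ± 0.270 TPM with ponatinib and 34.5 ± 1.39 TPM with DMSO (SD, n = 3 each). Neither passed the test, and the 95% intervals of their log2 fold changes were -0.13 to 0.13 for Chaf1a and -0.081 to 0.15 for Chaf1b. The gene row understates Chaf1a, since its transcript row Chaf1a-202 had 29.0, 31.9 and 27.6 TPM in the ponatinib libraries, against 25.8, 29.0 and 25.3 TPM in the DMSO libraries, 46.2% of the gene's summed TPM with ponatinib and 43.6% with DMSO.

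The 4 role groups had medians of 0.038 (origin), 0.11 (helicase), 0.088 (polymerase and fork) and 0.096 (chromatin), which span less than the range of members within any 1 group. Across libraries, the geometric mean level of the origin genes was 53.0, 56.1 and 58.0 TPM in the ponatinib libraries, against 52.5, 50.3 and 58.7 TPM in the DMSO libraries, so the groups overlapped. That of the helicase genes was 69.1, 71.8 and 73.4 TPM in the ponatinib libraries, against 65.0, 65.5 and 67.9 TPM in the DMSO libraries. That of the polymerase and fork genes was 73.1, 74.1 and 74.7 TPM in the ponatinib libraries, against 69.8, 70.4 and 71.3 TPM in the DMSO libraries. That of the chromatin genes was 87.0, 86.1 and 90.2 TPM in the ponatinib libraries, against 80.1, 79.7 and 82.7 TPM in the DMSO libraries. In the last 3 the ponatinib libraries were all above the DMSO libraries. Divided by the medians-of-ratios size factors, a step added after the data were seen, the helicase level was 67.8, 69.7 and 69.8 in the ponatinib libraries, against 68.6, 70.3 and 66.3 in the DMSO libraries. The groups then overlapped for the polymerase and chromatin genes as well.

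Replication genes outside the 44 were described from a list of 43, of which 42 had a gene row under the symbol used and were tested. In it 17 were higher, 40.5%, and 1 lower, 2.38%, beside 23.9% and 9.54% of all tested genes, and its median log2 fold change was 0.16. Scaling by medians of ratios left 9 higher, 21.4%, and 5 lower, 11.9%, beside 14.7% and 15.7% of all tested genes. Leaving out 1 library gave 11 to 20 higher, 26.2% to 47.6%, beside 13.4% to 35.3% of all tested genes. It gave 1 to 2 lower, 2.38% to 4.76%, beside 6.23% to 10.1% of all tested genes. Top1, which relaxes supercoils ahead of the fork, had 103, 109 and 109.9 TPM in the ponatinib libraries, against 73.9, 67.5 and 71.0 TPM in the DMSO libraries (log2 fold change 0.59 with an SE of 0.055, adjusted p = 0.000497). Its increase was larger than that of any of the 44 members. Rnaseh2a, the catalytic subunit of the RNase H2 that removes ribonucleotides from DNA, was the gene called lower. It had 51.4, 52.2 and 54.1 TPM in the ponatinib libraries, against 73.5, 68.8 and 68.7 TPM in the DMSO libraries (log2 fold change -0.41 with an SE of 0.053, adjusted p = 0.00149), with no overlap between groups. Other subunit genes of RNase H2 did not share this. Rnaseh2b was called higher (log2 fold change 0.26, adjusted p = 0.00756), a call lost with medians of ratios (0.16, adjusted p = 0.102). Rnaseh2c was not called (log2 fold change 0.034).

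Pclaf, which encodes a PCNA-binding protein, averaged 251 ± 3.89 TPM with ponatinib and 202 ± 1.54 TPM with DMSO, and Lmnb1, a nuclear lamin, averaged 195 ± 4.32 TPM with ponatinib and 156 ± 5.93 TPM with DMSO (SD, n = 3 each). Both were higher, with log2 fold changes of 0.31 and 0.32 and adjusted p of 0.00153 and 0.00252. Top1, Rnaseh2a, Pclaf and Lmnb1 were called in the same direction under all 15 alternatives.

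Of 13 genes of the E2F and RB families, 5 were higher, 38.5%, and 0 lower, beside 23.9% and 9.54% of all tested genes. With medians of ratios the counts were also 5 and 0, beside 14.7% and 15.7% of all tested genes. E2f8, a repressor of E2F targets, had 24.2, 25.6 and 27.1 TPM in the ponatinib libraries, against 16.7, 16.7 and 17.5 TPM in the DMSO libraries (log2 fold change 0.57 with an SE of 0.067, adjusted p = 0.00108). E2f7, its close relative, averaged 4.67 ± 0.0631 TPM with ponatinib and 3.05 ± 0.268 TPM with DMSO (SD, n = 3 each; log2 fold change 0.48, adjusted p = 0.00735). Tfdp1, a dimer partner of E2F factors, was higher by 0.28 and the activator gene E2f3 by 0.33 on the log2 scale. The E2f3 call (adjusted p = 0.02) was lost without any 1 library other than DMSO replicate 3, at adjusted p of 0.0539 to 0.0863. E2f1, an activator of S phase genes, was named after its values were seen. It averaged 18.4 ± 0.659 TPM with ponatinib and 18.2 ± 0.537 TPM with DMSO (SD, n = 3 each) and did not pass the test. With 1 library left out, 3 to 6 of the 13 were higher, 23.1% to 46.2%, beside 13.4% to 35.3% of all tested genes.

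Of the 12 higher calls, 8 were lost when at least 1 of the libraries was left out. Mcm4, Mcm5, Rpa2, Slbp and, in the other direction, Pold1 kept their calls without any 1 library. Rpa1 lost its call without ponatinib replicate 3, and Fen1 without ponatinib replicate 2 or 3. Orc2 and Gins3 lost theirs without ponatinib replicate 2 or 3 or DMSO replicate 1 or 2, and Pcna without ponatinib replicate 1 or 3 or DMSO replicate 1 or 2. Mcm3, Rfc1 and Rpa3 lost theirs without any library other than DMSO replicate 3. In all, 4 members, 9.09%, were higher without ponatinib replicate 3, where 13.4% of all tested genes were. There were 6, 13.6%, without ponatinib replicate 2, DMSO replicate 1 or DMSO replicate 2, beside 14.0%, 15.0% and 17.6%. Without ponatinib replicate 1 there were 8, 18.2%, beside 17.3%. Without DMSO replicate 3 there were 17, 38.6%, beside 35.3%, a share near that of all genes. The members added there were Orc1, Mcm2, Mcm10, Pola2 and Dnmt1.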

How the data were processed

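Libraries had been made from total RNA with a NEBNext Ultra II RNA kit, per the labels' protocols; strandedness is not stated. The authors deposited 1 table whose name speaks of normalized counts, but each column sums to 1000000, so the deposited values were treated as TPM. Salmon 1.5.1, fastp 0.19.5, DESeq2 1.22.1 and the build GRCm38 are listed in the submitters' processing notes, without roles. The table held 22095 gene rows and 20977 transcript rows. Gene names and positions were read from GENCODE mouse release 21 (GRCm38), in which 22011 gene rows and 20793 transcript rows were found. Gene rows alone were used, and transcript rows were added as an alternative.

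Ponatinib was compared with DMSO on log2(TPM + 1), which understates changes of low genes, with limma 3.58.1 in R 4.3.3 (lmFit, eBayes with trend, two-sided). The median SE of a log2 fold change was 0.091. Groups and replicate numbers came from sample titles. The fit was planned without a block for replicate number, and the block was run as an alternative. Over all tested genes, same-numbered libraries did not deviate together (correlations of -0.035, 0.056 and 0.0052). The members and lists were chosen with earlier results of these data known. Values are given per library for up to 4 members of each role group with the smallest p and for those with the largest change and level, as well as for up to 4 genes of each further replication list and Mki67. Pold2, Cdc7, Dbf4, E2f1, Zbtb7b, S100a8, S100a9, Ncr1, Ccna2, Birc5, Aurkb, Rnaseh2b, Rnaseh2c, Ssrp1 and Supt16 lie outside this rule. They were named after their values were seen. Alternatives changed the pseudocount, minimum, scaling, row use, block, variance fit and libraries. Promoter sequences are from RefSeq on GRCm38.p6; 40 of 46 windows of members matched a transcript just after the start.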

Additional observations from a re-analysis of the deposited data

Results flagged for a closer look

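Among 39 transcript rows of the members, which lie outside the gene rows compared above, 9 had a mean of at least 1 TPM. In 2 of these 9 all ponatinib libraries were above all DMSO libraries, which is no larger a share than the 34.5% of all tested gene rows. Mcm4-203, a coding transcript of Mcm4 outside the basic set of the annotation, averaged 5.04 TPM with ponatinib and 2.95 TPM with DMSO, with 4.58, 4.84 and 5.71 TPM in the ponatinib libraries, against 1.53, 3.10 and 4.21 TPM in the DMSO libraries. Cdc6-203, annotated as a target of nonsense-mediated decay, averaged 2.04 TPM with ponatinib and 1.66 TPM with DMSO, with 2.12, 2.03 and 1.97 TPM in the ponatinib libraries, against 1.79, 1.52 and 1.68 TPM in the DMSO libraries. Neither difference was tested.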

How the results depend on the processing

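Of 15 alternatives, those that moved counts or medians beyond their limits were medians of ratios, quantile normalization, the block and the left-out libraries. Scaling without mitochondrially encoded genes stayed within them, with 9 higher members, 20.5%, beside 24.9% of all tested genes. The 12 higher members became 3 with medians of ratios, 4 with quantile normalization and 7 with the replicate block, in which Orc2, Mcm3, Pcna, Rfc1 and Rpa3 lost their calls; all of these were among the 12. Of all tested genes, 14.7%, 17.1% and 22.9% were called higher under these settings, in that order. With 1 library left out there were 4 to 17 higher members, 9.09% to 38.6%, beside 13.4% to 35.3% of all tested genes. The 1 lower member became 2, with Cdt1 added, under quantile normalization as under medians of ratios. Over all genes, 2398 higher became 1478 and 958 lower became 1579 with medians of ratios, and 1446 were lower with quantile normalization; leaving out 1 library gave 1345 to 3534 higher and 626 to 1011 lower. With medians of ratios the medians by role were -0.0564 (origin), 0.0147 (helicase), -0.00705 (polymerase) and 0.000593 (chromatin), and with quantile normalization -0.035 (origin, where TPM gave 0.0381), 0.0493 (helicase), 0.00482 (polymerase) and 0.0343 (chromatin); the polymerase median ran from 0.0564 to 0.118 with 1 library left out. The cause of these shifts was not tested. Over all tested genes same-numbered libraries did not deviate together, which does not settle whether they were paired. In TPM, replicate 3 had the highest geometric mean in both treatments for all 4 role groups. Divided by the size factors, DMSO replicate 3 was instead the lowest DMSO library for the helicase, polymerase and chromatin genes. The block changed no other member's call.

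Members near 0 changed sign without being called. With medians of ratios these were Orc6 (-0.064), Cdc6 (-0.048), Cdc45 (-0.030), Gins2 (-0.050), Cdc7 (-0.017), Prim1 (-0.045), Pold2 (-0.036), Pole2 (-0.016), Rfc2 (-0.053), Rfc3 (-0.0071), Rfc4 (-0.080) and Chaf1b (-0.061). With quantile normalization they were Orc6 (-0.044), Cdc6 (-0.026), Gins2 (-0.042), Cdc7 (-0.00080), Prim1 (-0.011), Pold2 (-0.015), Pole2 (-0.0092), Rfc2 (-0.047), Rfc4 (-0.057) and Chaf1b (-0.033). With transcript rows added Chaf1a stood at 0.062. With 1 library left out the log2 fold change ran from -0.019 to 0.090 for Orc6, -0.054 to 0.052 for Gmnn, -0.064 to 0.0092 for Gins1, -0.0057 to 0.10 for Pold2, -0.0043 to 0.077 for Rfc2, -0.028 to 0.055 for Rfc4, -0.035 to 0.020 for Chaf1a. For Mki67, which is not a member, it ran from -0.070 to 0.0054. The depth of the libraries is unknown, so counting error cannot be separated from the spread between replicates.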

Other observations

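Mki67, a marker of cycling cells, had 104, 102 and 95.2 TPM in the ponatinib libraries, against 106, 105 and 97.6 TPM in the DMSO libraries (log2 fold change -0.033 with an SE of 0.057, adjusted p = 0.694), and its groups overlapped. Of a list of 14 genes of mitosis that holds Mki67, 7 were higher, 50%, and 0 lower by the same limma fit, beside 23.9% and 9.54% of all tested genes. Their median log2 fold change was 0.19. Scaling by medians of ratios left 4 higher and 1 lower, beside 14.7% and 15.7% of all tested genes. Leaving out 1 library gave 3 to 9 higher, 21.4% to 64.3%, beside 13.4% to 35.3% of all tested genes. Ccna2, which encodes cyclin A2, averaged 139.5 ± 4.81 TPM with ponatinib and 114 ± 3.11 TPM with DMSO, and Birc5, which encodes survivin, averaged 217 ± 7.22 TPM with ponatinib and 180.1 ± 5.67 TPM with DMSO (SD, n = 3 each); both were higher. Aurkb, of the same list, averaged 86.4 ± 3.30 TPM with ponatinib and 94.8 ± 3.14 TPM with DMSO (SD, n = 3 each). All its ponatinib libraries were below all DMSO libraries. It did not pass the test (adjusted p = 0.0865) and was the gene called lower with medians of ratios (adjusted p = 0.00906). These 3 genes were named after their values were seen.

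The gene row of Ssrp1, a subunit of the FACT histone chaperone, held 5.11, 4.03 and 11.7 TPM in the ponatinib libraries, against 15.6, 4.81 and 16.5 TPM in the DMSO libraries. Replicates differed several-fold within each group, and it did not pass the test. Its partner Supt16 averaged 130.4 ± 7.20 TPM with ponatinib and 95.3 ± 8.86 TPM with DMSO (SD, n = 3 each) and was higher (adjusted p = 0.00421).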
